A study of Mus musculus with 12 samples.

Results

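The genes described here carry the adrenergic signal from the surface of the fat cell to protein kinase A (PKA). They are the alpha and beta adrenergic receptors, the adenylyl cyclases, the cyclic nucleotide phosphodiesterases (PDEs) and the catalytic and regulatory subunits of PKA. Members were taken by gene symbol from the deposited count matrix and kept where the 12 libraries together held at least 10 counts. Of 51 matching symbols 45 were kept, out of 55573 genes in all, and they comprised 7 adrenergic receptors, 10 cyclases, 22 genes named as phosphodiesterases, 2 catalytic and 4 regulatory subunits. RNA was extracted from adipocytes that had been grown from stromal vascular cells of mouse subcutaneous fat, on a C57BL/6 background. The homozygous donors carried wild-type PPARγ (WT), a PPARγ in which alanine replaces a threonine of the DNA-binding domain and cannot be phosphorylated (TA), or one in which aspartate at that place mimics the phosphorylated state (TD). Each genotype had 4 libraries, and all received the same medium, in which the first 4 days contained 0.5 mM IBMX, a general PDE inhibitor, with 850 nM insulin, 1 nM triiodothyronine, 125 nM indomethacin and dexamethasone. IBMX was then withdrawn, insulin and triiodothyronine stayed, and cells were harvested on day 8. No adrenergic agonist is named in the labels for these cultures, so the values are those of unstimulated cells. The mutations were made by CRISPR-Cas9 in the whole animal, with WT littermates as controls, so the cells carried them before differentiation as well as after. The labels do not say whether libraries of 1 genotype came from separate animals, and the p-values then measure only the spread between these libraries.

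Noradrenaline acts on fat through opposing receptors. Beta receptors couple to Gs and switch adenylyl cyclases on, alpha-2 receptors couple to Gi and switch them off, and alpha-1 receptors couple to Gq and calcium. The cyclic AMP that results binds the regulatory subunits of PKA and frees the catalytic subunits, which in adipocytes phosphorylate perilipin and hormone-sensitive lipase and so start lipolysis. PDEs end the signal by hydrolysing cAMP, cGMP or both, and in adipocytes PDE3B is the enzyme through which insulin lowers cAMP.

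Depth ran from 16553324 to 20324286 counts a library, and the members took 0.205 to 0.252% of them. Levels are given as CPM, which are counts scaled to the TMM-normalised library size, or as CPM per kilobase of merged exons where genes are set against each other. All 10 adipocyte markers were detected in every genotype. Their summed level was 19357 to 21876 CPM in WT, 18253 to 22982 in TA and 13518 to 15492 in TD, and 8 of the 10 were lower in TD than in WT. Several lists of markers of other cells were higher in the mutants. The 12 fibroblast and preadipocyte markers summed to 12844-17174 CPM in WT, 14675-25965 in TA and 22734-34178 in TD, with 10 of 11 tested higher in TD than in WT, 6 higher in TA, and Dlk1 at 0 in WT and TD. The 8 endothelial markers summed to 28.3-60.5, 52.5-97.7 and 112-142 CPM, with 7 of 8 higher in TD and 3 in TA. The 15 skeletal muscle markers summed to 6.34-16.2 CPM in WT, where Myod1 and Myog were at 0, to 23.5-88.1 in TA and to 22.9-331 in TD, most in TD replicates 3 and 4, and 14 of the 14 tested were higher in TD. The 8 smooth muscle and pericyte markers summed to 95.2-104, 135-183 and 128-154 CPM, with 6 of 8 higher and 1 lower in TD and 5 higher in TA. The 8 macrophage markers summed to 272-797 CPM in WT, 133-580 in TA and 612-854 in TD, and none was called. The 8 Schwann cell and neuron markers summed to 21.1-27.7, 19.8-37.9 and 25.2-43.1 CPM, with Rbfox3 at 0 in WT and 2 of the 7 tested higher in TD. The share of counts on mitochondrially encoded genes was 4.92 to 5.88% in WT, 2.74 to 4.50% in TA and 2.86 to 3.57% in TD. The part of these markers in the results that follow was not tested, and in such bulk samples fewer cells of a type and less RNA per cell cannot be told apart.

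In each family 1 gene supplied most of the mRNA in WT cells. Adrb3, the beta-3 receptor of rodent adipocytes, made up 85.0% ± 1.5 (SD, n = 4) of the summed receptor level per kilobase. Adcy6, a cyclase inhibited by calcium, made up 57.7% ± 1.11 of the cyclase level, and Pde3b made up 55.0% ± 2.15 of the PDE level. That level sums all genes with the PDE name. It includes Pde6d (7.65% in WT) and Pde4dip (2.57%), which are not cAMP phosphodiesterases. Prkaca, the Cα catalytic subunit, made up 91.3% ± 0.720 of the catalytic level, and Prkar2b, the RIIβ regulatory subunit typical of fat and brain, made up 71.1% ± 1.60 of the regulatory level. The leading gene was the same in TA and TD, but the shares were not. Prkar2b supplied 60.6% ± 2.84 in TA and 61.6% ± 2.56 in TD, Adcy6 supplied 51.9% ± 1.84 and 51.2% ± 0.763, and Pde3b supplied 56.6% ± 3.49 and 46.9% ± 2.96. These shares are descriptions without a test. The summed level of a family moved most for the regulatory subunits, from 228 ± 17.7 CPM per kilobase in WT to 166 ± 16.8 in TA and 175 ± 5.34 in TD. The receptor sum stayed at 61.1 ± 2.76, 60.1 ± 18.4 and 60.3 ± 5.50 CPM per kilobase, with a wide spread in TA.

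**Figure D1:**
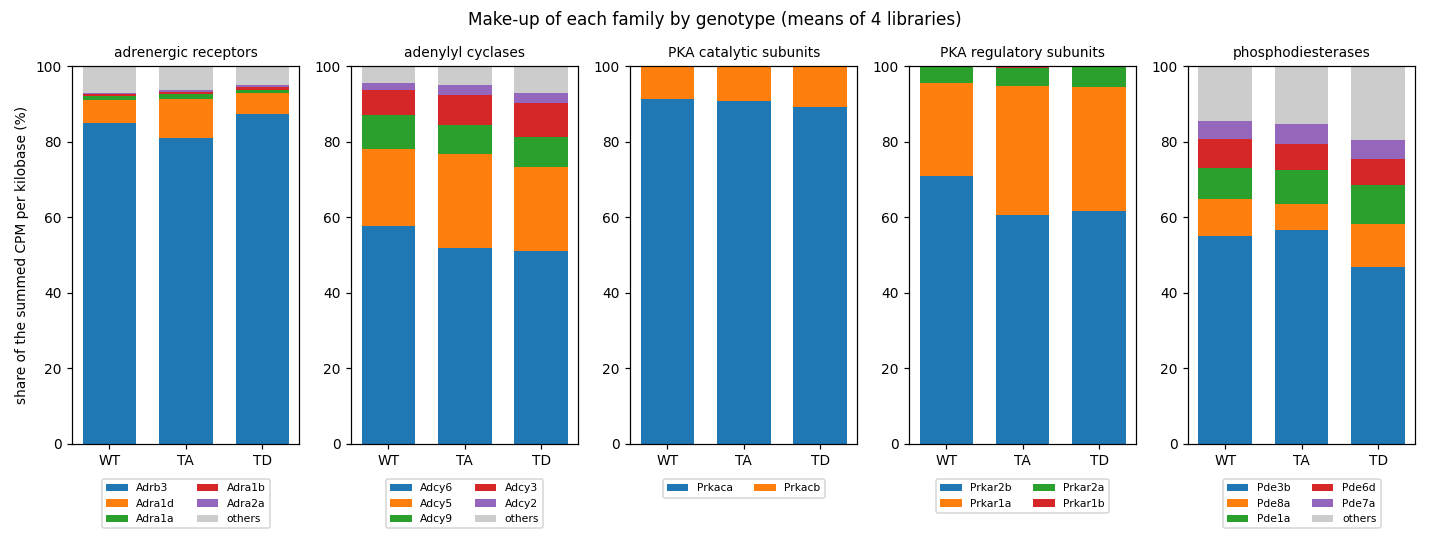
Stacked bars give each gene's share (%) of the summed CPM per kilobase of its family in WT, TA and TD, as means of 4 libraries, with up to 5 genes of a family in colour and the others in grey. Prkar2b takes 71.1% of the regulatory subunit level in WT against 60.6% in TA and 61.6% in TD. Pde3b takes 46.9% of the level of all genes named as phosphodiesterases in TD against 55.0% in WT.

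Of the 45 members, 39 had enough counts to be tested. TD was compared with WT first, and 8 members rose and 7 fell. Of all 15117 genes tested 28.9% were called in that comparison, 14.9% upward and 14.1% downward. TA against WT gave 5 rises and 4 falls, where 10.8% of all genes were called, 6.48% upward and 4.32% downward. Between TD and TA 4 members were higher and 5 lower in TD, where 16.2% of all genes were called, 6.91% upward and 9.33% downward. The libraries of the genotypes compared did not overlap for 18, 10 and 9 of the 39 members, against 32.2, 13.6 and 19.9% of all genes. The members called made up 38.5, 23.1 and 23.1% of those tested in the 3 comparisons. The median log2 fold change of the 39 was 0.10, 0.06 and 0.09, against 0.01, -0.01 and 0.02 over all genes. TD replicates 3 and 4 held the most skeletal muscle marker RNA. Of the TD libraries they also had the lowest adipocyte marker sums, 14422 and 13518 CPM. Their fibroblast and preadipocyte sums were the highest, at 30781 and 34178 CPM. The part of these traits in the calls was not tested. Calls in TD thin out when these 2 libraries are left out. The TD libraries then number 2, and the members called number 6 against WT and 3 against TA. Among the 6 are Adcy4, Pde7b and Pde11a, which were higher, and Adra1a and Prkar2b, which were lower. The 3 against TA are Adra1a, Adra1d and Pde8a.

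Adrb3 mRNA did not differ between genotypes beyond its spread. Its level was 173, 179, 162 and 188 CPM in the WT libraries, 128, 192, 108 and 239 in TA, and 174, 204, 177 and 158 in TD. The TD range covers that of WT, and the TA libraries lie on both sides of it. The log2 fold change was 0.02 in TD (95% interval -0.43 to 0.47, adjusted p = 0.954) and -0.07 in TA (-0.52 to 0.38, adjusted p = 0.874). The summed adipocyte markers of the 4 TA libraries, in the same order, were 19919, 22982, 18253 and 21954 CPM, and the TA libraries with the least Adrb3 also had the lower marker sums. An antisense gene, Gm45470, shares 24.9% of the Adrb3 exon bases and had a mean of 219 counts against 3170, and the strand setting of the counting is not given in the sources used here.

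Per kilobase in WT, Adrb3 (52.0 ± 3.15 CPM per kilobase) stood far above Adra1d (3.65 ± 0.479), Adra1a (0.745 ± 0.149), Adra1b (0.374 ± 0.0849) and Adra2a (0.109 ± 0.0547), and each of these was apart from the next beyond their SDs.

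The Gq-coupled alpha-1 receptors split by genotype. Adra1a was 8.41, 5.46, 6.05 and 6.08 CPM in WT, 4.85, 6.76, 4.73 and 6.17 in TA, and 2.95, 2.91, 3.51 and 3.46 in TD. Every TD library lay below every WT and TA library. Adra1a fell by 1.02 on the log2 scale against WT (SE 0.183, adjusted p = 0.000607) and was lower by a log2 fold change of -0.81 against TA (SE 0.185, adjusted p = 0.0063). Adra1d had the other pattern and was raised in TA. It was 6.02, 8.14, 7.04 and 6.52 CPM in WT, 12.4, 11.6, 9.35 and 11.2 in TA, and 5.39, 6.74, 7.5 and 6.39 in TD. The 4 TA libraries stand above all others, with a log2 fold change of 0.68 against WT (SE 0.143, adjusted p = 0.00429) and of -0.77 for TD against TA (adjusted p = 0.00144). Adra1d supplied 10.3% ± 2.79 of the receptor level per kilobase in TA against 5.98% ± 0.791 in WT, a share that also moves with Adrb3. In TD Adra1d was not called against WT (-0.09, adjusted p = 0.684). The summed smooth muscle and pericyte markers were 95.2 to 104 CPM in WT, 135 to 183 in TA and 128 to 154 in TD, and their part in the level of Adra1d was not tested. Adra1b, the remaining alpha-1 receptor, was not called, at 0.932 to 1.59 CPM in WT, 1.06 to 1.66 in TA and 1.38 to 1.70 in TD.

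The alpha-2 receptors, which oppose cyclase activity, were rare in these cells. Adra2a had 4 to 16 counts in the WT libraries, 6 to 29 in TA and 10 to 43 in TD. It was called higher in TD (log2 fold change 1.61, SE 0.506, adjusted p = 0.0232), but the libraries overlap, with TD at 0.568, 1.19, 2.24 and 2.52 CPM and WT at 0.198 to 0.795. The call is lost without WT replicate 3 or 4 or TD replicate 3 or 4, with adjusted p from 0.0586 to 0.491 over the alternatives that end it, and without TD replicates 3 and 4 the log2 fold change is 0.73. Adra2b had 50 counts in all and was too low to test, and Adra2c is listed at 0.

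**Figure D2:**
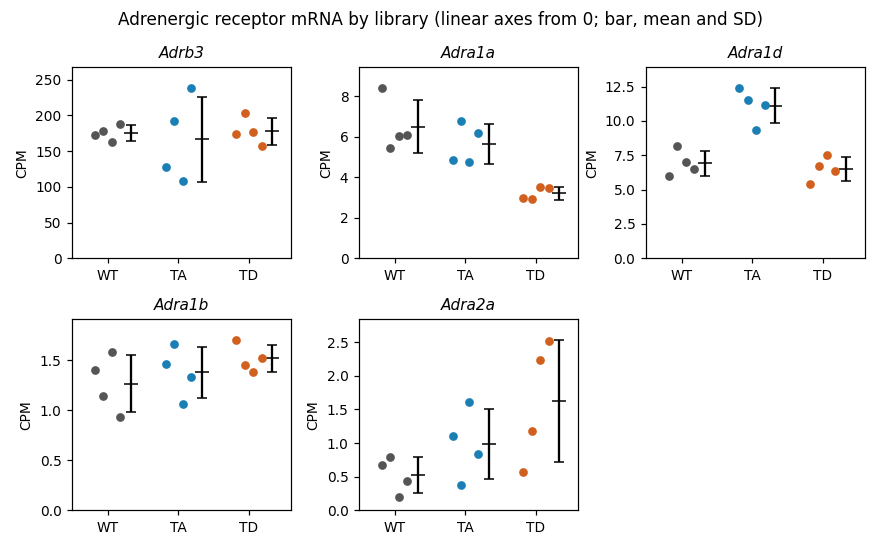
Points are the 4 libraries of each genotype in CPM on linear axes from 0, 1 panel for each of 5 adrenergic receptor genes, with the mean and SD as bars. Adrb3 overlaps between genotypes, Adra1a is lowest in all 4 TD libraries (2.91 to 3.51 CPM), and Adra1d is highest in all 4 TA libraries (9.35 to 12.4 CPM).

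Adenylyl cyclases make cAMP from ATP, and 3 of the 10 rose in TD while none fell, a share of 30% beside the 28.9% of all genes called. Adcy4, a cyclase stimulated by G protein beta-gamma subunits, was 2.65, 2.58, 3.07 and 2.9 CPM in WT, 3.04, 3.87, 3.62 and 2.95 in TA, and 5.68, 5.77, 6.33 and 6.33 in TD. All TD libraries lie above the rest, with a log2 fold change of 1.10 against WT (SE 0.166, adjusted p = 0.000173) and 0.84 against TA (adjusted p = 0.00217). The summed endothelial markers also stood apart in TD, at 112 to 142 CPM against 28.3 to 60.5 in WT and 52.5 to 97.7 in TA. Adcy2, of the same subgroup as Adcy4, was 2.48 to 3.28 CPM in WT and 4.37 to 5.22 in TD (log2 fold change 0.71, SE 0.193, adjusted p = 0.0096). In TA Adcy2 was 3.39 to 5.62 CPM, above every WT library, but was not called against WT (0.51, adjusted p = 0.0999). TD against TA was not called either (0.20, adjusted p = 0.51). Adcy3, a widely expressed cyclase, was 14.8 to 17.5 CPM in WT and 18.7 to 24.7 in TD (0.44, SE 0.12, adjusted p = 0.0103). In TA Adcy3 was 15.9 to 23.1 CPM and was not called (0.23, adjusted p = 0.251). Its exons overlap Cenpo on the other strand over 22.1% of their length. Without TD replicates 3 and 4 neither Adcy2 (adjusted p = 0.127) nor Adcy3 (adjusted p = 0.258) was called.

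Adcy10, the soluble cyclase that responds to bicarbonate in place of G proteins, was the only cyclase called in TA against WT. It was 1.5, 1.04, 1.49 and 1.81 CPM in WT, 5.21, 3.20, 3.56 and 2.11 in TA, and 1.25, 1.51, 2.13 and 1.76 in TD. The rise in TA was 1.27 on the log2 scale (SE 0.283, adjusted p = 0.00666), at 38 to 89 counts a library against 21 to 33. It was lower in TD than in TA (-1.08, adjusted p = 0.0139), although TD replicate 3 overlaps TA replicate 4, and that call is lost without TA replicate 1 (-0.82, adjusted p = 0.0673). Adcy6, Adcy5 and Adcy9, the cyclases with the highest levels per kilobase in WT, were not called in any comparison. Adcy6 was 144 to 172 CPM in WT, 123.3 to 151 in TA and 135 to 144 in TD, with log2 fold changes of -0.20 in TA (adjusted p = 0.118) and -0.16 in TD (adjusted p = 0.131). Without TA replicate 4, Adcy6 was called lower in TA (-0.27, adjusted p = 0.0334). Adcy5, another cyclase inhibited by calcium, was 46.0 to 67.8, 62.8 to 75.4 and 59.3 to 68.6 CPM, and Adcy9, a cyclase with low sensitivity to forskolin, was 16.5 to 19.5, 12.8 to 17.8 and 14.7 to 18.5 CPM. The other 3, Adcy1, Adcy7 and Adcy8, were not called.

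The main regulatory subunit of PKA fell in both mutants. Prkar2b, the RIIβ subunit that holds the kinase inactive and binds anchoring proteins, was 583, 541, 573 and 674 CPM in WT, 389, 434, 340 and 313 in TA, and 416, 413, 389 and 356 in TD. No mutant library reached the lowest WT library. It fell by 0.59 on the log2 scale in TD (SE 0.101, adjusted p = 0.000439) and by 0.68 in TA (SE 0.102, adjusted p = 0.000211), so that it fell by 33.6% in TD and fell by 37.7% in TA. The mutants were not called different from each other (0.09, 95% interval -0.12 to 0.31, adjusted p = 0.571). The summed adipocyte markers were 19357 to 21876 CPM in WT, 18253 to 22982 in TA and 13518 to 15492 in TD, and their part in the fall of Prkar2b was not tested. Both calls of Prkar2b against WT held under all 20 alternatives.

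Prkar1a, the widely expressed RIα subunit, was 226 to 257 CPM in WT, 226 to 257 in TA and 235 to 261 in TD and was not called (log2 fold change 0.05 in TD, 0.02 in TA). The level of Prkar2b relative to Prkar1a per kilobase was therefore 2.92 ± 0.233 in WT, 1.79 ± 0.237 in TA and 1.87 ± 0.213 in TD. Prkar2a, the RIIα subunit, fell by 0.27 on the log2 scale in TA (SE 0.0768, adjusted p = 0.0322), from 61.0-63.9 CPM in WT to 47.3-57.8. This call is lost without WT replicate 1, 3 or 4 or TA replicate 3 or 4 and in a fit to the 2 genotypes alone, with adjusted p from 0.0582 to 0.0933. In TD Prkar2a was 53.0 to 60.2 CPM (-0.14, adjusted p = 0.174). Prkar1b, the RIβ subunit best known from neurons, had 13 to 46 counts a library and was not called.

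Of the catalytic subunits Prkaca fell in TD. It was 228, 205, 208 and 224 CPM in WT, 193, 216, 189 and 197 in TA, and 183, 180, 176 and 165 in TD. The TD libraries lie below all WT and TA libraries, a log2 fold change of -0.30 (SE 0.0711, adjusted p = 0.00461). Against TA the difference was -0.18 and was not called (adjusted p = 0.0997), and without TD replicates 3 and 4 the call against WT is lost too (-0.25, adjusted p = 0.098). Prkacb, the Cβ subunit, was 67.2 to 76.5 CPM in WT, 58.1 to 85.4 in TA and 70.9 to 76.9 in TD and was not called. Set against each other per kilobase, regulatory over catalytic mRNA was 2.40 ± 0.112 in WT, 1.89 ± 0.135 in TA and 2.21 ± 0.0362 in TD. In this ratio TA libraries (1.70 to 2.01) lie below those of TD (2.16 to 2.24) and of WT (2.32 to 2.56), without a test.

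**Figure D3:**
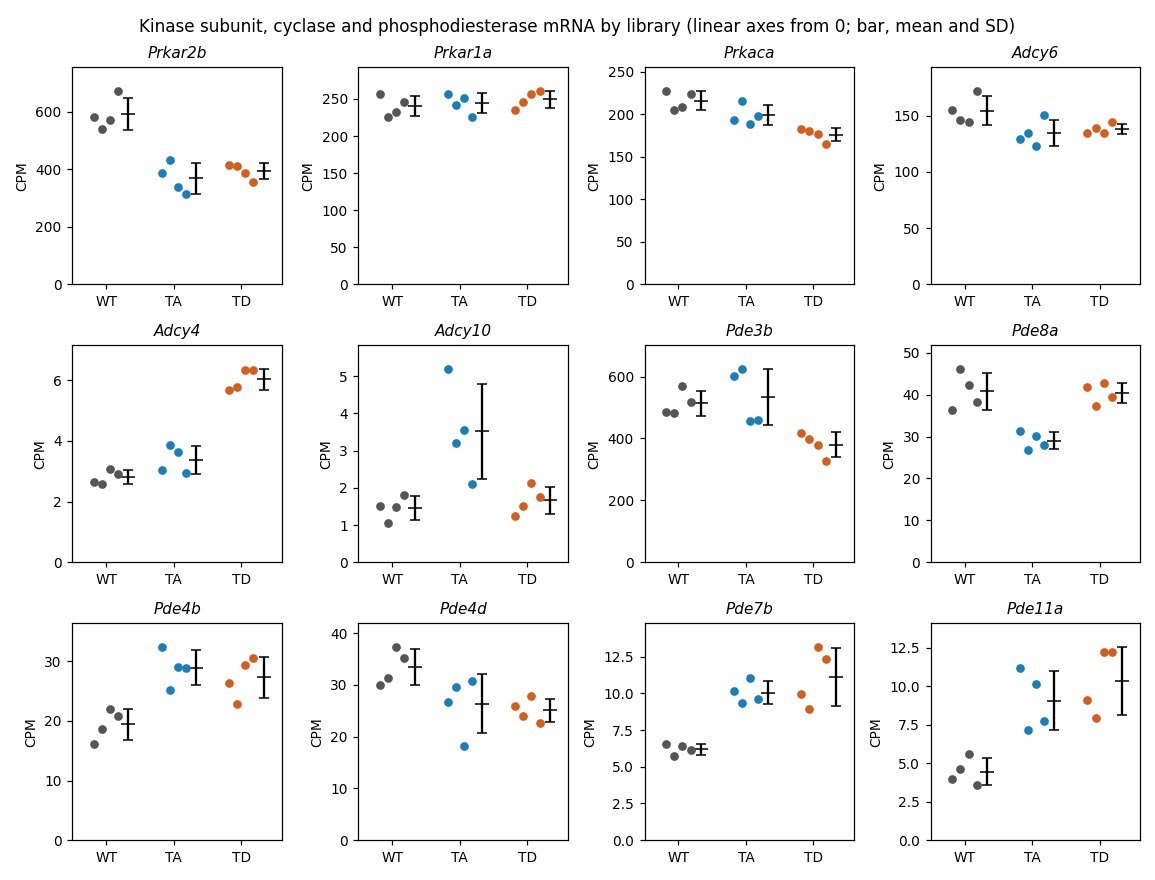
Points are the 4 libraries of each genotype in CPM on linear axes from 0, 1 panel for each of 12 genes for kinase subunits, cyclases and phosphodiesterases, with the mean and SD as bars. Prkar2b is lower in all 8 mutant libraries (313 to 434 CPM) than in WT (541 to 674 CPM), Pde3b is lowest in TD, Pde8a is lowest in TA, and Pde4b, Pde7b and Pde11a are higher in both mutants.

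Among 17 tested PDE genes, 4 rose and 3 fell in TD and 3 rose and 2 fell in TA. These calls made up 41.2% of the 17 in TD and 29.4% in TA, beside 28.9 and 10.8% of all genes. The falls include those of Pde6d in TD and Pde4dip in TA, which carry the PDE name only. The main PDE of these cells, Pde3b, fell in TD and was lower there than in TA too. It was 485, 482, 569 and 516 CPM in WT, 601, 625, 456 and 459 in TA, and 418, 396, 380 and 326 in TD. All TD libraries are below all others, with a fall of 0.43 on the log2 scale against WT (SE 0.111, adjusted p = 0.00708) and a log2 fold change of -0.49 against TA (SE 0.111, adjusted p = 0.00559). Without TD replicates 3 and 4 these were -0.33 (adjusted p = 0.136) and -0.39 (adjusted p = 0.129). Beside it, the summed adipocyte markers were 13518 to 15492 CPM in TD against 19357 to 21876 in WT. Pde3a, its paralog in heart, vessels and oocytes, was not called, at 14.0 to 17.6 CPM in WT and 17.1 to 20.5 in TD, so the ratio of Pde3b to Pde3a per kilobase was 44.4 ± 5.46 in WT, 46.5 ± 12.2 in TA and 27.5 ± 3.19 in TD.

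Pde8a, a high-affinity cAMP enzyme that IBMX does not inhibit, fell in TA. It was 36.4, 46.2, 42.3 and 38.2 CPM in WT, 31.2, 26.9, 30.1 and 27.9 in TA, and 42.0, 37.4, 42.7 and 39.6 in TD. The TA libraries lie below all others. The fall was 0.49 on the log2 scale against WT (SE 0.0878, adjusted p = 0.00118), TD was higher than TA by 0.48 (SE 0.088, adjusted p = 0.00133), and TD and WT were close (-0.01, 95% interval -0.20 to 0.17). Pde8b, of the same subfamily, had 2 to 14 counts a library in TA, 9 to 31 in WT and 15 to 22 in TD, and it overlaps the antisense gene Gm48420, with a mean of 5.5 counts, over 7.6% of its exons. It was called higher in TD than in TA (1.47, SE 0.487, adjusted p = 0.047), and 11 of 20 alternatives ended that call, among them each library of TD left out and TA replicates 1, 2 and 3.

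The cAMP-specific PDE4 genes Pde4b and Pde4d moved in opposite directions in TD. Pde4b, known as a PDE4 that cAMP signalling itself induces, was 16.1, 18.7, 22 and 20.9 CPM in WT, 32.5, 25.2, 29.1 and 28.9 in TA, and 26.4, 22.8, 29.4 and 30.6 in TD. It rose by 0.57 on the log2 scale in TA (SE 0.115, adjusted p = 0.00298) and by 0.49 in TD (SE 0.115, adjusted p = 0.00401), with no overlap with WT, and without TD replicates 3 and 4 the TD value was 0.34 (adjusted p = 0.126). Pde4d was 30.0, 31.3, 37.4 and 35.2 CPM in WT, 26.6, 29.6, 18.2 and 30.8 in TA, and 25.9, 24.0, 27.8 and 22.6 in TD. It fell in TD (-0.42, SE 0.132, adjusted p = 0.0255), a call lost without WT replicate 3 or 4 or TD replicate 2 or 4, and was not called in TA (-0.35, adjusted p = 0.105). Per kilobase, Pde4b over Pde4d was 0.659 ± 0.0315 in WT, 1.31 ± 0.384 in TA and 1.24 ± 0.204 in TD. On this scale Pde4d was the more abundant in every WT library (0.612 to 0.679) and Pde4b in every TD library (1.08 to 1.54), while TA libraries went both ways (0.967 to 1.82). The order in TD depends on the exon lengths, as TD replicate 2 had 24.0 CPM of Pde4d against 22.8 of Pde4b. Pde4a was not called, at 10.1 to 10.9 CPM in WT, 10.4 to 12 in TA and 11.3 to 13 in TD.

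Pde7b and Pde11a were higher in both mutants. Pde7b, a cAMP-specific enzyme, was 6.54, 5.71, 6.44 and 6.14 CPM in WT, 10.2, 9.35, 11.1 and 9.61 in TA, and 9.99, 8.95, 13.2 and 12.4 in TD. No mutant library overlapped WT. The log2 fold change was 0.84 in TD (SE 0.138, adjusted p = 0.000312) and 0.70 in TA (SE 0.138, adjusted p = 0.00279). Pde11a, which hydrolyses both cAMP and cGMP, was 4, 4.62, 5.60 and 3.56 CPM in WT, 11.2, 7.13, 10.2 and 7.78 in TA, and 9.08, 7.92, 12.2 and 12.3 in TD. It rose by 1.22 on the log2 scale in TD (SE 0.191, adjusted p = 0.000232) and by 1.03 in TA (SE 0.192, adjusted p = 0.00172), the largest rises of a PDE called in either comparison. The summed fibroblast and preadipocyte markers were 22734 to 34178 CPM in TD, 14675 to 25965 in TA and 12844 to 17174 in WT, so that TA overlapped both. The summed smooth muscle and pericyte markers were 128 to 154 CPM in TD and 135 to 183 in TA, against 95.2 to 104 in WT. Skeletal muscle markers summed to 22.9 to 331 CPM in TD and 23.5 to 88.1 in TA, against 6.34 to 16.2 in WT. Endothelial markers summed to 112 to 142 CPM in TD and 52.5 to 97.7 in TA, against 28.3 to 60.5 in WT. The part of these markers in the 2 rises was not tested. Pde7a, the other PDE7 gene, was called lower in TD than in TA (-0.26, adjusted p = 0.047), and 13 of 20 alternatives ended that call, among them each WT library left out, TA replicates 1 and 2, and TD replicates 2, 3 and 4.

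Pde10a, an enzyme for both nucleotides, was 9.44, 7.15, 6.84 and 7.18 CPM in WT and 8.18, 9.81, 13 and 11.1 in TD (log2 fold change 0.46, SE 0.164, adjusted p = 0.0424). The groups overlap through WT replicate 1, and the call is lost without WT replicate 2, 3 or 4 or TD replicate 2, 3 or 4. The PDE name also covers genes that are not cAMP phosphodiesterases. Pde6d, a chaperone for prenylated proteins, was 13.7 to 18.9 CPM in WT and 11 to 14.9 in TD (-0.35, SE 0.126, adjusted p = 0.0456), a call lost in 9 of 20 alternatives, among them without WT replicate 1, 2 or 4 or TD replicate 1, 2 or 4. Pde4dip, the scaffold protein myomegalin, fell in TA (-0.39, SE 0.116, adjusted p = 0.0377), from 41.1-47.8 CPM in WT to 31.2-38.4. That call is lost without WT replicate 1, 3 or 4 or TA replicate 1, 2 or 4, with adjusted p from 0.0609 to 0.0958. In TD, Pde4dip was 37.3, 42.1, 55.6 and 55.1 CPM, higher than in TA (0.49, SE 0.116, adjusted p = 0.00814). The high libraries are TD replicates 3 and 4, which also had the most skeletal muscle marker RNA, 331 and 194 CPM. They had the lowest adipocyte sums of TD too (14422 and 13518 CPM) and the highest fibroblast and preadipocyte sums (30781 and 34178 CPM). The part of these markers in the level of Pde4dip was not tested. Without these 2 libraries the log2 fold change is 0.23 (adjusted p = 0.277), and leaving out the highest values lowers it in any case.

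Pde1a, a calcium-calmodulin enzyme and the third most abundant PDE per kilobase in WT, was 48.1 to 52.0 CPM in WT, 47.5 to 61.7 in TA and 54.2 to 57.6 in TD. The TD libraries all lie above WT, but the difference was not called (0.15, adjusted p = 0.172). Pde1b, Pde2a and Pde5a were also not called in any comparison. Of Pde2a, 64.3% of the exon bases are shared with Gm45837 on the same strand, so that its 12 to 30 counts a library are uncertain. The genes too low to test were Pde1c with 28 counts in all, the photoreceptor genes Pde6a with 27, Pde6b with 46, Pde6c with 10 and Pde6g with 62, and Adra2b. Pde12 is listed at 0 in every library. Its neighbour Arf4, which overlaps it on the other strand and is used by every cell, had 0 to 2 counts a library, so the 0 cannot be read as absence of Pde12.

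**Figure D4:**
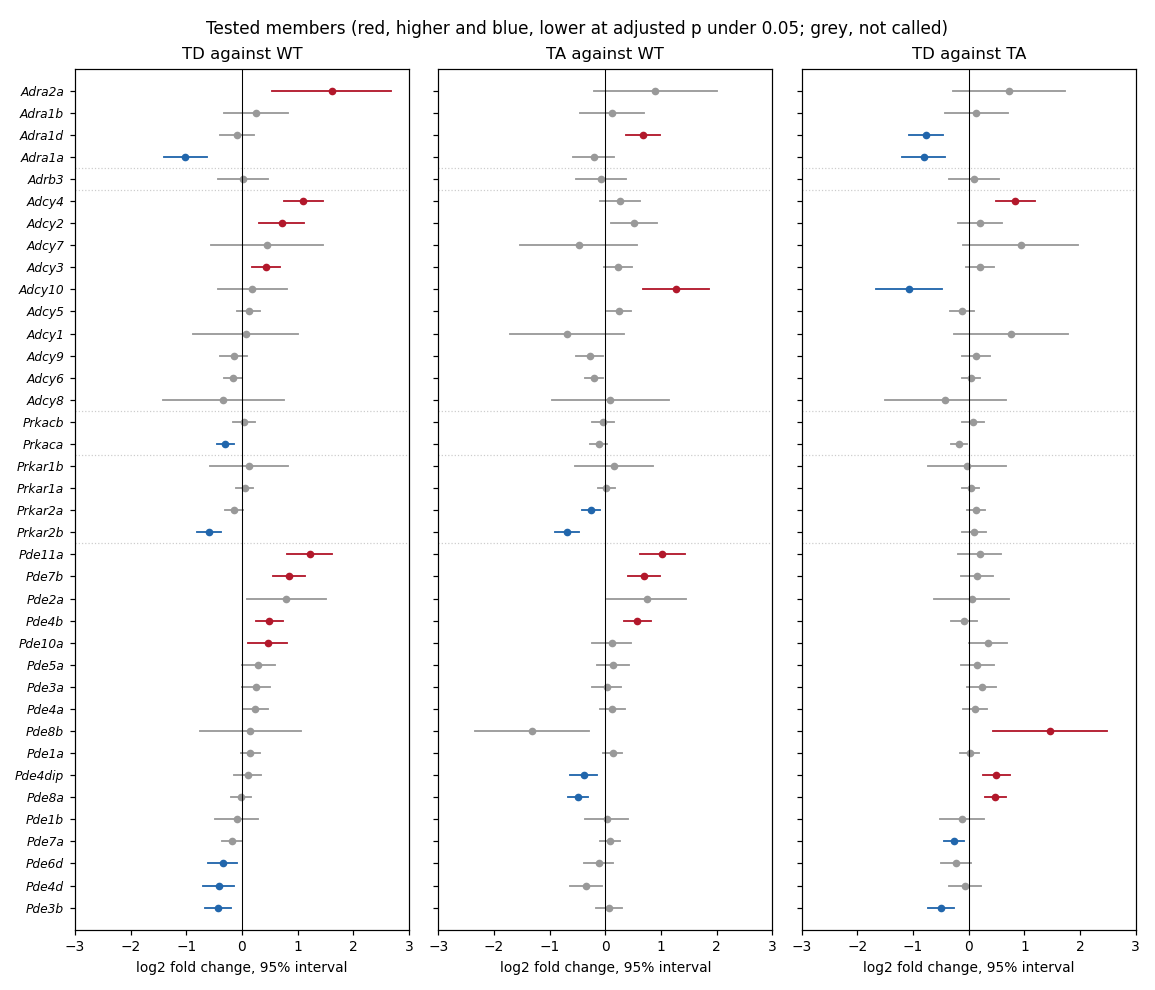
Each row is a tested gene, 38 in all, ordered by family, with its log2 fold change (point) and 95% interval (line) in TD against WT, TA against WT and TD against TA. Red and blue mark genes higher and lower at an adjusted p under 0.05, which number 8 and 6 in the first panel, 5 and 4 in the second and 4 and 5 in the third, and the first 2 panels share the WT libraries.

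Of the 39, 4 were called in the same direction in both mutants against WT, with Prkar2b lower and Pde4b, Pde7b and Pde11a higher. Both comparisons use the same WT libraries, so they are not independent. None of the 4 was called between TD and TA. Adra1d, Adcy10 and Pde8a were called in TA against WT and again between TD and TA, and Adra1a, Adcy4 and Pde3b in TD against WT and again against TA. Pde4dip was called lower in TA than in WT and higher in TD than in TA. In all 17 of the 39 were called in no comparison, 11 in 1 and 11 in 2.

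Promoter windows are shown for the 4 genes that moved alike in both mutants, to set their starts side by side, and for Pde8a, which fell in TA alone of the mutants. RefSeq windows on GRCm38.p6, running from 250 bases before to 50 after a transcript start, were available for 33 of the 45 members, and the most upstream window of each gene is printed 5′ to 3′. Capitals mark TGACG, the core of the cAMP response element, AGGTCA, the core motif of nuclear receptor sites, or CACGTG, the E-box, each read on both strands.
Prkar2b, chr12:32061228-32061527, minus strand: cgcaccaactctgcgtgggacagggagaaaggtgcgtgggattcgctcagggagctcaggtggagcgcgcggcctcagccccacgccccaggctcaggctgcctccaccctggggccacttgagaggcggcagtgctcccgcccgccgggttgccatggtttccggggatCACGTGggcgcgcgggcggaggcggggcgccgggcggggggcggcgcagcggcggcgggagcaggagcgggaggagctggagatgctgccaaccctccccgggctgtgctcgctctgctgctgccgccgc
Pde4b, chr4:102421305-102421604, plus strand: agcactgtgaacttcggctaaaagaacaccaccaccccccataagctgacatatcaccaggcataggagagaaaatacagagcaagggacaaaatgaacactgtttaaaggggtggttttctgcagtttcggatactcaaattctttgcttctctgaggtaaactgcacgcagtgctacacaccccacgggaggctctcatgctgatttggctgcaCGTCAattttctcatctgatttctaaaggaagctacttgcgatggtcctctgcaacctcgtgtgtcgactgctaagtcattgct
Pde7b, chr10:20548279-20548578, minus strand: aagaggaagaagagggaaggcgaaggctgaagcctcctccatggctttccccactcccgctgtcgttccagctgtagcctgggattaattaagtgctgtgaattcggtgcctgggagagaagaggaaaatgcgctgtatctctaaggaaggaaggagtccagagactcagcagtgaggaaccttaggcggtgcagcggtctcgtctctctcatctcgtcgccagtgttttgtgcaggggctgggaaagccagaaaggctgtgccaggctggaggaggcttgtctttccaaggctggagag
Pde11a, chr2:76338889-76339188, minus strand: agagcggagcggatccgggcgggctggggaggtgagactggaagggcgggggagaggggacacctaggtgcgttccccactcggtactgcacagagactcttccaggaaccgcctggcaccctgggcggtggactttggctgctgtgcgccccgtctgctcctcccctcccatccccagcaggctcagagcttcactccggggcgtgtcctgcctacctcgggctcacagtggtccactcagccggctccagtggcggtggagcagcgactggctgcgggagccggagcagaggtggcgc
Pde8a, chr7:81213015-81213314, plus strand: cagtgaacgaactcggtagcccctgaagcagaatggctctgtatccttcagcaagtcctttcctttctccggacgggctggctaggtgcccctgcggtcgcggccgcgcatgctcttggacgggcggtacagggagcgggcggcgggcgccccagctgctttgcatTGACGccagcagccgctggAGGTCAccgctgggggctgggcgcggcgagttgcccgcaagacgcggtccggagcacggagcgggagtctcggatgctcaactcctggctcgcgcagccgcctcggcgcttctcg

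The E-box in Prkar2b begins 80 bases before the start, and the TGACG of Pde4b, on the other strand, begins 34 bases before it. Pde8a holds TGACG at 84 and AGGTCA at 65 bases before the start. The windows of Pde7b and Pde11a hold none of these letters, and those of Pde4b and Pde7b lie within the genes as GENCODE draws them. Such matches are common. TGACG stands in 20.8% of all 32851 windows and in 16 of the 72 windows of the members, AGGTCA in 16.3% and in 8 of 72, and CACGTG in 7.15% and in 6 of 72. The full element TGACGTCA, which contains TGACG on each strand, stands in 1.79% of all windows and among the members only in 2 windows of Prkar1a, which was not called in any comparison. The Prkar2b window has 75.0% G and C against a median of 52.7% over all windows.

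Genes on either side of the members were described by counts from the same fit. Over all 15117 genes tested 14.9% rose and 14.1% fell in TD against WT, and 6.48% rose and 4.32% fell in TA against WT. Of 6 tested G protein alpha subunits that act on cyclases none was called in TD against WT and 1 rose in TA, Gnao1 (Go), from 8.11 ± 0.877 to 23.7 ± 2.46 CPM (SD, n = 4; log2 fold change 1.55, adjusted p = 1.01e-07). Its level in TD was 9.59 ± 0.907 CPM, lower than in TA (-1.30, adjusted p = 9.01e-07). Of 11 receptor kinases, arrestins and RGS proteins 3 rose and 3 fell in TD, and 2 rose and 1 fell in TA. Grk3, a kinase that desensitises receptors, fell from 3.85 ± 0.618 CPM in WT to 1.04 ± 0.352 in TA (-1.90, adjusted p = 8.08e-05) and to 2.27 ± 0.388 in TD (-0.76, adjusted p = 0.0204). Rgs5, also in the list of pericyte markers, rose in both (2.45 in TD, adjusted p = 0.000257, and 2.40 in TA, adjusted p = 0.000499). Of 12 PKA inhibitors and anchoring proteins 2 rose and 2 fell in TD, and 1 each in TA. Akap1, which tethers PKA to mitochondria through its RII subunits, fell from 88.2 ± 7.78 CPM in WT to 61.0 ± 4.12 in TD (-0.53, adjusted p = 0.000489) and 71.0 ± 9.37 in TA (-0.31, adjusted p = 0.0353). Akap6, an anchoring protein of muscle, rose in TD (2.90, adjusted p = 0.00231), and Pkia, an inhibitor of the catalytic subunit, rose in TA from 2.08 ± 0.555 to 4.28 ± 1.39 CPM (1.04, adjusted p = 0.0103).

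Adipocyte cyclases also answer to other receptors. Of 17 of these that were tested, 5 rose and 3 fell in TD, and 5 rose and 2 fell in TA. Over all genes 28.9% were called in TD against WT and 10.8% in TA against WT. Mc2r, the ACTH receptor that couples to Gs, was 22.2 ± 0.482 CPM in WT, 69.1 ± 9.75 in TA and 19.6 ± 0.588 in TD, a rise in TA of 1.64 on the log2 scale (adjusted p = 2.93e-09). Tshr, the thyrotropin receptor that also couples to Gs, fell in TA from 35.8 ± 7.98 to 20.01 ± 1.77 CPM (-0.84, adjusted p = 0.000305). Adora1, the Gi-coupled adenosine receptor that restrains lipolysis, fell in TD from 132 ± 11.5 to 73.6 ± 5.41 CPM (-0.84, adjusted p = 0.000895). Vipr1, a Gs-coupled receptor for VIP, rose in TD from 0.201 ± 0.140 to 0.703 ± 0.158 CPM (1.76, adjusted p = 0.0207). Of 7 genes of the cGMP limb 4 rose in TD, with the largest rise in Gucy1a1, a subunit of the nitric oxide receptor, from 0.813 ± 0.331 to 3.51 ± 0.932 CPM (2.09, adjusted p = 0.000293). In TA Gucy1a1 reached 2.21 ± 0.918 CPM (1.43, adjusted p = 0.0114), and in all 2 rose and 1 fell in TA, where Npr1, the natriuretic peptide receptor, went from 83.5 ± 9.81 to 40.7 ± 5.79 CPM (-1.04, adjusted p = 1.74e-05).

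Downstream of PKA, all 6 genes of the lipolysis list fell in TD against WT, with a median log2 fold change of -0.47. All 6 also fell in TD against TA (median -0.50), and none was called in TA against WT. Among all genes tested, 14.1% fell in TD against WT and 9.33% in TD against TA. Pnpla2, the triglyceride lipase ATGL, fell from 3209 ± 302 to 2018 ± 120 CPM in TD (-0.67, adjusted p = 0.000993). Plin1 of this list is also among the adipocyte markers, 8 of 10 of which fell in TD. Of 13 transcripts known to be induced by cAMP 2 rose and 3 fell in TD, and 1 rose and 2 fell in TA. Over all genes 28.9% were called in TD against WT and 10.8% in TA against WT. In TD the largest rise was that of Junb, an AP-1 subunit, from 48.4 ± 3.1 to 72.1 ± 7.42 CPM (0.57, adjusted p = 0.000227), and the largest fall that of Dio2, the deiodinase that activates thyroid hormone, from 5.67 ± 1.13 to 2.6 ± 0.711 CPM (-1.12, adjusted p = 0.00585). Fos, an immediate early gene, was 30.2 ± 5.73 CPM in WT, 8.39 ± 1.13 in TA and 20.1 ± 2.15 in TD (TA against WT -1.84, adjusted p = 9.35e-08), while Ppargc1a, the PGC-1α coactivator, rose in TA from 11.3 ± 0.63 to 16.2 ± 2.14 CPM (0.52, adjusted p = 0.00499). Of 6 CREB family and CRTC genes 1 rose in TD, Crtc1 (0.36, adjusted p = 0.036), and none was called in TA. Of 4 other cAMP effectors tested 1 rose in TD, the channel gene Hcn4 (1.61, adjusted p = 0.000767), and 2 rose and 1 fell in TA, with Bves (2.07, adjusted p = 0.00122) the larger rise and Hcn2 (-0.85, adjusted p = 0.0315) the fall.

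Between TD and TA the same lists gave these largest calls. Mc2r (-1.82, adjusted p = 6.03e-10), Bves (-1.44, adjusted p = 0.0103), Ppargc1a (-0.81, adjusted p = 0.000116), Mgll, the monoglyceride lipase (-0.77, adjusted p = 0.000105), and Rgs2, a regulator of G protein signalling (-0.39, adjusted p = 0.0243), were lower in TD. Vipr1 (1.68, adjusted p = 0.0437), Fos (1.26, adjusted p = 1.03e-05), Grk3 (1.13, adjusted p = 0.00693), Npr1 (0.84, adjusted p = 0.000146) and Crtc3, a CREB coactivator (0.31, adjusted p = 0.0175), were higher in TD.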

How the data were processed

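RNA of cultured adipocytes was analysed for 4 WT, 4 TA and 4 TD libraries, grouped by genotype and replicate from the sample labels. The authors deposited read counts per gene, without normalization, for 55573 genes. The submitters' processing notes name bcl2fastq 2.17.1.14, cutadapt 1.9.1, HISAT2 2.0.1, HTSeq 0.6.1 and the build GRCm38, and the strand setting is not given in the sources used here. Positions and exon lengths were taken from GENCODE M21, on the same build, which held 99.7% of the identifiers. Members and lists were chosen with earlier results of these data known.

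Computation used R 4.3.3, edgeR 4.0.16 and DESeq2 1.42.0. Genes were kept by filterByExpr (minimum count 10, minimum total 15), libraries were scaled by TMM, and edgeR's robust quasi-likelihood fit took in all 12 libraries. The 3 contrasts were tested two-sided and adjusted by the Benjamini-Hochberg method over 15117 genes, and an adjusted p under 0.05 counted as called. On simulated data 77.3% of 198 changed genes were called among 14937 tested in TD against WT, and 4.97% of calls were false. The simulated rises and falls were all of the same size, larger than most changes called among the members, so recovery of smaller changes was not measured. Depth limits genes of few counts, and intervals are those of the fit.

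Named were all receptors and PKA subunits that passed, cyclases and PDEs called in any comparison, the 3 of each of these 2 classes with the highest mean level per kilobase, and, cell type markers apart, the largest called rise or fall of a list. The values of 1 member are not reported here. Other members are named as untested, uncalled or as a paralog. Alternatives were other scaling, other filters, DESeq2, a fit to the 2 genotypes compared, a replicate block and each library left out. Leaving out TD replicates 3 and 4 was added after seeing the data.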

Additional observations from a re-analysis of the deposited data

Results flagged for a closer look

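Among 93 groups of 4 libraries, for the named members, 1 library stood far from the others by Dixon's test. Pde10a in WT replicate 1 was 9.44 CPM, the highest of its group, while the other WT libraries lay at 6.84 to 7.18 CPM. The gap took 0.850 of the group's range, more than the test's critical value for 4 libraries. Chance alone marks about 1 in 20 such groups.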

How the results depend on the processing

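Of 33 calls of a named member in a comparison, 16 held under all 20 alternatives and no call reversed. Of 60 values that were not called, 6 were called under some alternative. Among the 16 are both calls of Adra1a, Adra1d, Pde7b, Pde8a, Pde11a and Prkar2b, that of Adcy4 in TD against WT, and those of Adcy10 and Pde4b in TA against WT. Without TD replicates 3 and 4 the members called went from 15 to 6 in TD against WT and from 9 to 3 in TD against TA, and all genes called from 4373 to 1508 and from 2455 to 634, with 2 TD libraries in the fit. With each single library left out the members called ranged from 11 to 15, from 7 to 9 and from 6 to 10 in TD against WT, TA against WT and TD against TA, and all genes called in TD against TA ranged from 1395 to 3477, lowest without TA replicate 2, TD replicate 4 (1419) or TD replicate 3 (1560). The cause was not tested.

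Scaling by library totals gave 10 rises and 6 falls of members in TD against WT in place of 8 and 7, and over all genes it moved the split to 2827 higher and 1562 lower in TD against WT (2245 and 2128 by TMM) and to 1712 and 974 in TD against TA (1045 and 1410). Raw counts without length gave a share of 87.7% in WT and 90.1% in TD for Adrb3, 59.0% and 52.8% for Adcy6, and in WT, TA and TD 62.5, 63.4 and 53.6% for Pde3b, 74.9, 74.0 and 70.4% for Prkaca and 66.0, 55.2 and 56.1% for Prkar2b, since they weight long transcripts more.

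No pairing of the samples by replicate number was seen in expression, which cannot show whether same-number libraries were prepared together. The deviations of 12 same-number pairs correlated at -0.237 to 0.196, and a library's best match had its own number in 5 of 24 cases. With the replicate number as a block 11, 9 and 8 members were called in TD against WT, TA against WT and TD against TA, and 5 calls were lost, those of Adra2a, Pde4d, Pde6d and Pde10a in TD against WT and of Pde8b in TD against TA (adjusted p from 0.0524 to 0.0649), while the other 88 values kept their side of the threshold. Members of few counts, such as Adra2a and Pde8b, are limited by depth.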
